A study of Mus musculus with 4 samples.

Results

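The genes described here are 9 regulators and markers by which the stroma of the developing kidney is recognised: Foxd1, Tcf21, Tbx18, Meis1, Meis2, Alx1, Postn, Ogn and Snai2. They were taken by gene name among the non-control probes of a mouse array, which gave 9 probes, 1 for each gene, out of 39395 probes and 31809 gene names measured on all 4 arrays. RNA came from mouse embryonic kidney at E15.5, the embryonic age in days, from hybrids of 129 and C57BL/6 whose kidneys carried the Six2GFP reporter, so both groups share the reporter strain. The groups were Six2GFP-positive cells and Six2GFP-negative cells, parted by fluorescence-activated sorting and measured on 2 one-colour arrays each. The comparison asked how the expression of these sorted populations differs. The labels do not say how the reporter was built, how many embryos were pooled or whether the arrays of a group came from separate litters, so p-values measure only the spread between these arrays, which may be technical. The cell type field of the labels calls both groups nephron progenitors and the description field mentions tamoxifen, which no protocol does; the groups follow the sample titles.

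The kidney stroma is the mesenchyme that wraps the cap of nephron progenitors and fills the space between tubules. Its progenitors express the forkhead factor Foxd1 and give rise to interstitial fibroblasts, pericytes, mesangial cells and vascular smooth muscle, and stromal signals influence how nephron progenitors renew and differentiate. Tcf21, a basic helix-loop-helix factor, works in stroma and in podocytes. Tbx18 is a T-box factor of the mesenchyme around the ureter, Meis1 and Meis2 are homeobox factors of the TALE class that pair with Pbx proteins, Alx1 is a paired-type homeobox factor, and Snai2 is a zinc-finger repressor of epithelial genes. Postn and Ogn encode the secreted matrix proteins periostin and osteoglycin.

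Each gene was read by a single probe of 60 bases, so each result rests on the sequence of that probe. The stretches below, 30 bases of each probe written 5′ to 3′, are shown because the genes of each of these 4 related pairs gave different results. Capitals mark the longest run of bases that the 2 whole probes of a pair share, which was 5 or 6 bases. Only probes were compared and no transcript was searched, so these runs do not show whether a probe binds the transcript of the relative.
Meis1: accttggagcatTTATGTagacattgtaaa
Meis2: ttgatcactccgTTATGTtgcctcaaatag
Foxd1: GAAATaagtcgaaatttaccatttcctatt
Foxd2: cggagactctgtGAAATcgtctgatggtct
Tcf21: tgaaggaagtggtgaccGCCAACcgcttgt
Msc: gacgtttctgcaGCCAACaggctttgtgga
Postn: aattcagaaaacTCAAGgtttaagttaaaa
Tgfbi: aaatgtgaaTCAAGcagtccggcattctgg

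In mm9 coordinates from the scanner files, the probe of Foxd1 lies at chr13:99126452-99126511 on the plus strand and that of Tcf21 at chr10:22537563-22537622 on the minus strand. The Tbx18 probe is at chr9:87599514-87599573, minus strand. The Meis1 probe is at chr11:18780695-18780754 and the Meis2 probe at chr2:115689641-115689700, both on the minus strand, and the Meis2 probe was designed on transcript variant 5. Alx1 was read at chr10:102471172-102471231 on the minus strand. Postn at chr3:54194840-54194899, Ogn at chr13:49719549-49719608 and Snai2 at chr16:14709361-14709420 were read on the plus strand. Against probes of all other genes on the array, the longest exact run shared by a member's probe was 13 to 15 bases. This too compares probes only, not transcripts. An exon annotation of mm9 was not used here, so whether a probe lies in coding or untranslated sequence is not stated.

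The sort separated its own marker. Six2, the factor that keeps nephron progenitors undifferentiated, had log2 signals of 5.58 and 5.74 in Six2GFP-positive cells, against -0.17 and -0.15 in Six2GFP-negative cells; here and below, a level is the log2 signal of a probe relative to the 75th percentile of its array. Cited1, a co-regulator marking the cap mesenchyme, differed in the same direction by 4.80 ± 0.17 (SE, 2 arrays in each group; adjusted p = 5.3e-04 in limma). Of 9 cap mesenchyme markers, 8 were higher in positive cells and none lower. Of the markers of other cells, 8 of 9 ureteric bud, 4 of 6 podocyte, 6 of 6 endothelial, 3 of 4 mural, 1 of 6 macrophage, 4 of 5 erythroid and 2 of 5 tested neural genes were lower, and 1 podocyte, 1 mural and 1 neural gene were higher. Between 72.5% and 79.1% of spots were well above background per array, and no spot was saturated. All 4 arrays were on 1 slide with 1 recorded scan time, and their number limits the precision.

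Most of the stromal genes were lower in Six2GFP-positive cells, but they spanned a wide range and 1 ran the other way. Of the 9 members, all of which could be tested, 7 were lower, 1 was higher and 1 did not pass the threshold, an adjusted p of 0.05 in limma over 30012 probes. Over all probes tested, 18.2% were lower and 21.1% higher. Signal was well above background on all 4 arrays for 8 members, and of these 6 were lower, 1 higher and 1 not past the threshold. Tbx18 passed the filter on dim probes only through the negative arrays, which set its direction, so its call is a description. The median difference of the members was -1.38 (log2, positive minus negative), against 0.15 for all probes. Of the 7 transcription factors, 5 fell, as did both matrix genes. The difference was at least 4-fold for 4 members, Tbx18, Alx1, Ogn and Postn, a size reached downward by 7.25% of all probes. In bulk RNA of sorted cells, fewer cells of a type and less RNA per cell cannot be told apart.

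**Figure D1:**
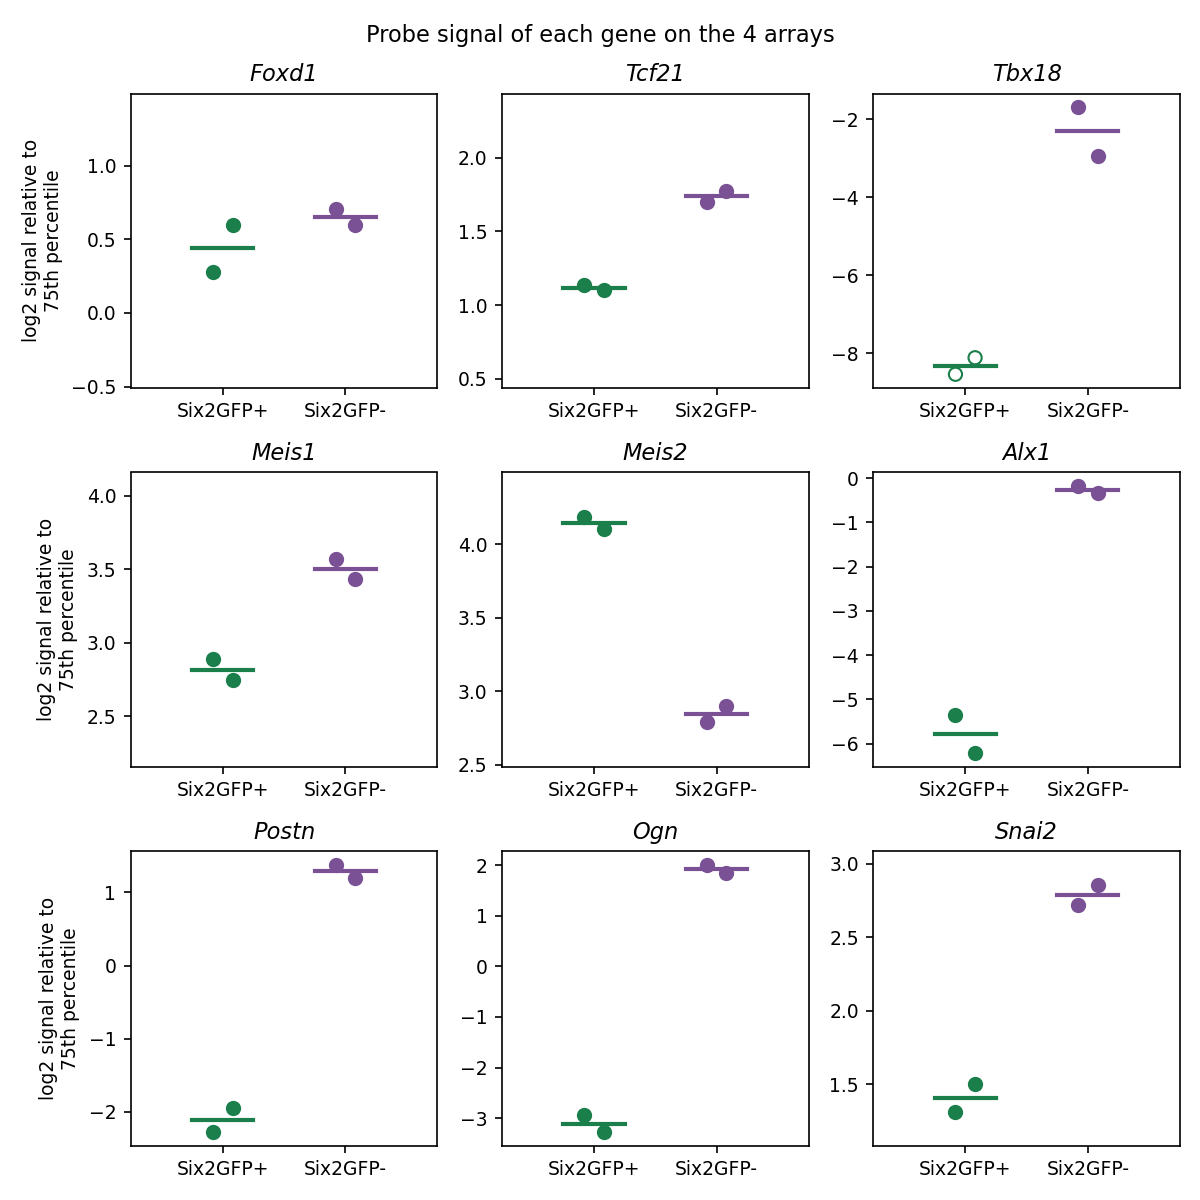
Log2 signal of each probe relative to the 75th percentile of its array (vertical axis, own scale in each panel) on the 2 Six2GFP-positive arrays (green, left) and the 2 Six2GFP-negative arrays (purple, right); replicate 1 is the left point of each pair, bars are means, and open circles are not well above background. The groups are apart in 8 panels and overlap for Foxd1, and Meis2 is the panel with the positive arrays on top. Over all 30012 probes tested, the groups were apart for 75.1%.

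Tbx18 could not be told from background in Six2GFP-positive cells, where it was not well above it on either array. Its processed intensity was 3.84 and 5.08 on the positive arrays, against 499 and 206 on the negative arrays. The mean levels were -8.33 in positive cells and -2.32 in negative cells. Tbx18 was lower in positive cells by a nominal bound of at least 26.5-fold (limma adjusted p = 0.00267, or 0.00754 with no filter on dim probes). This bound rests on the processed intensity and sets the negative mean against the lowest signal well above background on each positive array. It is nominal because some probes not well above background had signals above that lowest one. The groups did not overlap, but the negative arrays were themselves far apart for this gene: array 1 exceeded array 2 by 1.26 log2, and only 1.48% of 2896 probes within 0.5 log2 of its level in negative cells had a larger gap. With normexp background correction, which lifts dim probes, the difference was -2.31 (adjusted p = 0.00472), a smaller fold than that bound.

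Alx1 was weak but detected in positive cells. It stood at -5.35 and -6.22 on the positive arrays, against -0.17 and -0.34 on the negative arrays. The probe was well above background on all 4 arrays. The groups were far apart, by -5.53 ± 0.32 (SE, adjusted p = 0.00128), which is 46.1-fold. The positive arrays differed by 0.86 log2, more than the median absolute gap of 0.24 among probes of similar level. With normexp correction the difference was -3.79 (adjusted p = 2.6e-05), so the size for this dim probe depends on how background is handled while its direction and call were kept.

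The matrix genes fell as well. Ogn, a small leucine-rich proteoglycan of connective tissue, had levels of -2.95 and -3.28 in positive cells, against 2.00 and 1.84 in negative cells. The arrays of each group lay close together, and the difference was -5.03 ± 0.15 (SE; adjusted p = 4.8e-04), or 32.8-fold. Postn, a matricellular protein that binds integrins and collagen, had levels of -2.28 and -1.95 in positive cells, against 1.38 and 1.20 in negative cells. That is a difference of -3.40 ± 0.16 (SE; adjusted p = 8.1e-04), or 10.6-fold. Both probes were well above background on every array, so Six2GFP-positive RNA still carried signal for these matrix genes.

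The other lower genes were well above background in both populations. Snai2 had levels of 1.31 and 1.50 in Six2GFP-positive cells, against 2.72 and 2.85 in Six2GFP-negative cells. It was 2.60-fold lower (log2 difference -1.38 ± 0.12, SE; adjusted p = 0.00306) and kept its call under every alternative tried. Meis1 had levels of 2.89 and 2.75 in positive cells, against 3.57 and 3.43 in negative cells. The groups did not overlap, and the difference was -0.68 ± 0.11 (SE; adjusted p = 0.0152), or 1.60-fold. The call was lost without positive array 2 (adjusted p = 0.0833), negative array 1 (0.0650) or negative array 2 (0.0579), and kept without positive array 1 (0.0494).

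Tcf21 differed least among the genes that passed. Its levels were 1.14 and 1.10 on the positive arrays, against 1.70 and 1.78 on the negative arrays. The spread within a group was small, and the difference was -0.62 ± 0.09 (SE; adjusted p = 0.0116), or 1.54-fold. The call was lost with centring on the array median (-0.37, adjusted p = 0.0592) and without positive array 1 (0.0603), positive array 2 (0.0764) or negative array 2 (0.0647). Podocytes also express Tcf21. Of 6 podocyte markers, 4 were lower in positive cells, among them Podxl of the filtration barrier, while Wt1, which nephron progenitors express too, was higher by 1.15 ± 0.08 (SE; adjusted p = 0.00206). The summed linear level of this list was 41.9 to 42.4 in positive cells and 23.4 to 24.1 in negative cells, most of it Wt1. Without Wt1, the sum of the other 5 was 0.640 to 0.682 in positive cells and 4.74 to 5.39 in negative cells, and every podocyte marker was well above background on all 4 arrays. The podocyte marker that was neither lower nor higher by its brightest probe was lower, past the threshold, by another probe. The part of podocyte RNA in the Tcf21 values was not tested.

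**Figure D2:**
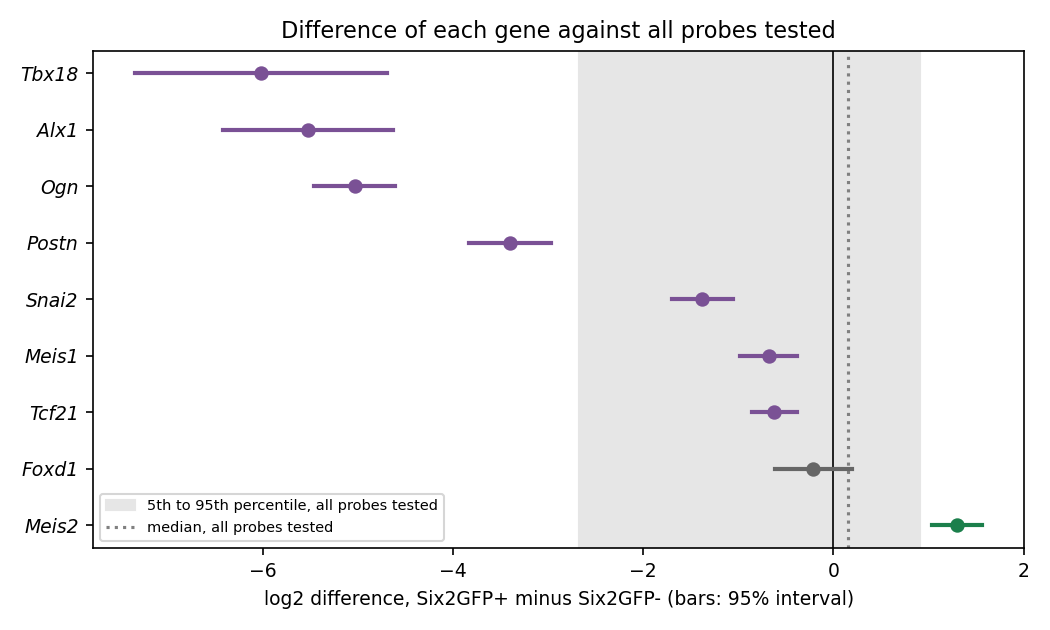
Log2 difference of each member, Six2GFP-positive minus Six2GFP-negative (points), with its 95% interval from limma (bars); purple is lower, green higher and grey not past the threshold. The grey band spans the 5th to 95th percentile of all 30012 probes tested and the dotted line their median; 4 members lie below the band and Meis2 above it, with the Tbx18 point resting on signals below background in positive cells.

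Meis2 was the member that rose. Its levels were 4.18 and 4.10 in Six2GFP-positive cells, against 2.79 and 2.90 in Six2GFP-negative cells. The groups were well apart, and Meis2 was 2.46-fold higher in positive cells (log2 difference 1.30 ± 0.10, SE; 95% interval 1.03 to 1.56; adjusted p = 0.00223). The interval of Meis1, -0.98 to -0.39, lies on the other side of 0, so these paralogues differed in opposite directions. Every alternative kept both directions, with Meis2 between 1.11 and 1.55. By position among all probes ordered by difference, Meis2 stood at the 97.4th percentile and Meis1 at the 16.7th.

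Foxd1, the gene that defines the stromal progenitor, did not separate the populations. Its levels were 0.28 and 0.60 in positive cells, against 0.71 and 0.60 in negative cells. Positive array 2 reached the level of negative array 2, so the groups overlapped, whereas 75.1% of probes tested did not overlap. The difference was -0.21 ± 0.14 (SE; adjusted p = 0.303), with a 95% interval of -0.61 to 0.19, which spans 0. The positive arrays differed by 0.32 log2, and 5.03% of 2565 probes of similar level had a larger gap. With the array median in place of the 75th percentile, all differences rose by 0.25 and that of Foxd1 turned to 0.042 (adjusted p = 0.828).

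Set against their name as stromal genes, 7 members were lower in the cells sorted for the nephron progenitor reporter, and Foxd1 and Meis2 were not. Probes of 8 members were well above background on all 4 arrays, Foxd1 among them, so their RNA was measured in Six2GFP-positive cells as well. By pattern over the 4 arrays, the genes nearest to Meis2 were Spaca9, Lag3 and Pax2, a regulator of the nephron lineage, at distances of 0.05 to 0.06 log2. Those nearest to Foxd1 were Kcna3, Nr4a2 and Elavl2, at 0.02 to 0.05. The measure was the Euclidean distance of levels after subtracting each gene's own mean, among the 16652 genes that all 4 arrays detected. Over 4 arrays in 2 groups such nearness is a description only.

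Other genes of the stroma were lower with few exceptions. Of 24 further stromal genes, each read by its brightest probe, 23 were lower and 1 higher in positive cells, with a median difference of -3.61. Over all 24150 genes so represented, 18.4% were lower and 20.8% higher, with a median of 0.15. Pdgfra, a growth factor receptor of mesenchyme, differed by -5.41 ± 0.20 and the fibrillar collagen gene Col3a1 by -5.19 ± 0.13 (SE; adjusted p = 5.6e-04 and 4.8e-04). Zeb1, a zinc-finger factor of mesenchymal cells, was the exception, higher by 1.16 ± 0.13 (SE; adjusted p = 0.00617). Within the list, Aldh1a2, which makes retinoic acid, differed by -1.09 ± 0.08, a retinoic acid receptor gene, Rarb, by -1.90 ± 0.10 and the atypical cadherin gene Fat4 by -1.02 ± 0.12 (SE; adjusted p = 0.00239, 0.00108 and 0.00811). Aldh1a2, Rarb and Fat4 were named after their values were seen. The summed linear level of the 24 genes was 31.4 and 27.8 on the positive arrays, against 246 and 228 on the negative arrays.

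Genes of the ureteric mesenchyme and smooth muscle, the tissue of Tbx18, were lower in 11 of 12 cases, with a median of -3.23. None was higher, or 1 with centring on the array median. Foxf1 was not well above background on the positive arrays and entered the test through the negative ones, which set its direction. Of the 10 genes well above background on all 4 arrays, 9 were lower. The T-box genes Tbx3 and Tbx2, which are active in the same mesenchyme, differed by -5.12 ± 0.29 and -5.07 ± 0.16 (SE; adjusted p = 0.00118 and 5.2e-04). Markers of other cell types did not all drop alike in positive cells. The summed level of 6 endothelial markers was 0.24 to 0.25 in positive cells, against 6.51 to 7.18 in negative cells, and that of 4 mural markers 2.26 to 2.45, against 4.82 to 5.33. A linear sum is set mostly by the brightest genes of its list, and the mural markers did not move together, with 3 lower and 1 higher. Macrophage markers summed to 5.53 to 7.86 in positive cells, against 9.06 to 10.4 in negative cells. The sum of the neural markers ran the other way, with 0.556 to 0.560 in positive cells, against 0.414 to 0.445. The part of these cell types in the stromal values was not tested.

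**Figure D3:**
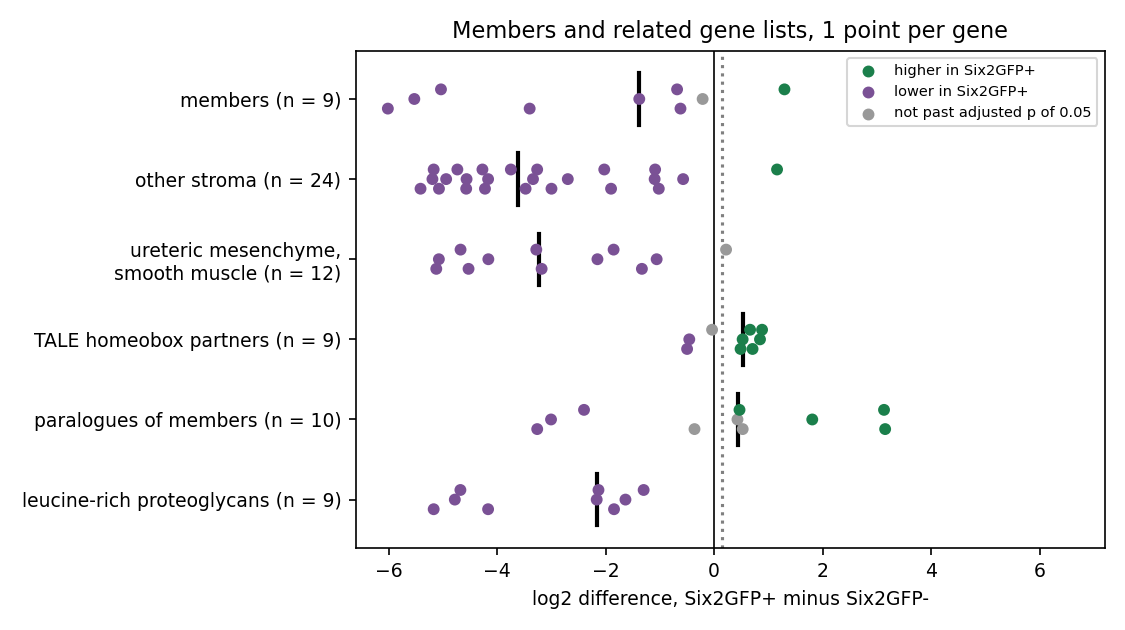
Log2 difference, Six2GFP-positive minus Six2GFP-negative, of every tested gene in the 9 members and in 5 lists of related genes (points, coloured by call; vertical bars are list medians; the dotted line is the median of all genes). Stromal, ureteric mesenchyme and proteoglycan genes lie mostly left of 0, and TALE partners and paralogues on both sides.

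The closest relatives of the members did not follow them throughout. Of 13 paralogues listed, 10 could be tested, of which 3 were lower and 4 higher. Foxd2, a forkhead gene related to Foxd1, had levels of 3.90 and 3.75 in positive cells, against 0.68 and 0.66 in negative cells. It was higher by 3.15 ± 0.10 (SE; adjusted p = 5.0e-04), while Foxd1 itself was not past the threshold. Msc, a helix-loop-helix relative of Tcf21, was higher by 3.13 ± 0.15 (SE; adjusted p = 8.9e-04), or by 1.37 with normexp correction. Further relatives of that family, Tcf23 and Tcf15, differed the other way, by -3.26 ± 0.11 and -3.01 ± 0.13 (SE; adjusted p = 5.3e-04 and 7.1e-04). Tgfbi, the relative of Postn, was higher by 1.81 ± 0.09, and Snai1, the relative of Snai2, was lower by a log2 difference of -2.40 ± 0.13 (SE; adjusted p = 8.6e-04 and 0.00115). Alx4 had a difference of 0.43 that did not pass (adjusted p = 0.0829), but it passed with the array median, quantile normalization and either normexp setting, at adjusted p of 0.00995 to 0.0494. Tbx22 had a difference of 0.53 that did not pass, and it ranged from 0.037 to 1.02 with 1 array left out. Tgfbi, Snai1, Alx4 and Tbx22 were named after their values were seen.

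TALE homeobox genes that relate to or pair with Meis proteins moved in both directions. Among the 9 tested, 6 genes were higher and 2 lower, with a median of 0.53. Pbx2 was higher by 0.88 ± 0.14 and Meis3 by 0.85 ± 0.08 (SE; adjusted p = 0.0163 and 0.00468), while Pknox2 and Pbx3 differed by -0.50 ± 0.09 and -0.46 ± 0.10 (SE; adjusted p = 0.0203 and 0.0310). Probes disagreed for Meis3, where another gave -0.43 (adjusted p = 0.0530). These small differences depended on the arrays and the scaling: 1 to 3 of the 9 genes were higher and none lower with 1 array left out, and none was lower with the array median. Leaving out positive array 1 gave 2 higher, positive array 2 gave 1, negative array 1 gave 2 and negative array 2 gave 3.

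Small leucine-rich proteoglycans, the family of Ogn, were lower in the 9 cases tested, with a median of -2.16. Lum, a collagen-binding member, differed by -5.17 ± 0.08 (SE; adjusted p = 4.8e-04). Aspn, which had no signal well above background on the positive arrays, was at least 21.4-fold lower (limma adjusted p = 7.0e-04). Omd, whose probe lies 31702 bases from that of Ogn on the same strand, was below background in positive cells too and at least 6.38-fold lower (adjusted p = 7.5e-04). Both bounds rest on the processed intensity and are nominal, like that of Tbx18. The smallest drop under the alternatives was -2.01 (log2) for Aspn and -0.89 for Omd, less than the bound of each. Kera, Omd, Optc, Dcn, Bgn and Fmod were named after their values were seen, as was Foxf1. Kera, Omd, Aspn and Optc were all below background on both positive arrays and entered the test through the negative arrays, so their direction was set by the filter. A filter on all 4 arrays left 4 of the family, Dcn, Bgn, Lum and Fmod, each of them lower.

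**Figure D4:**
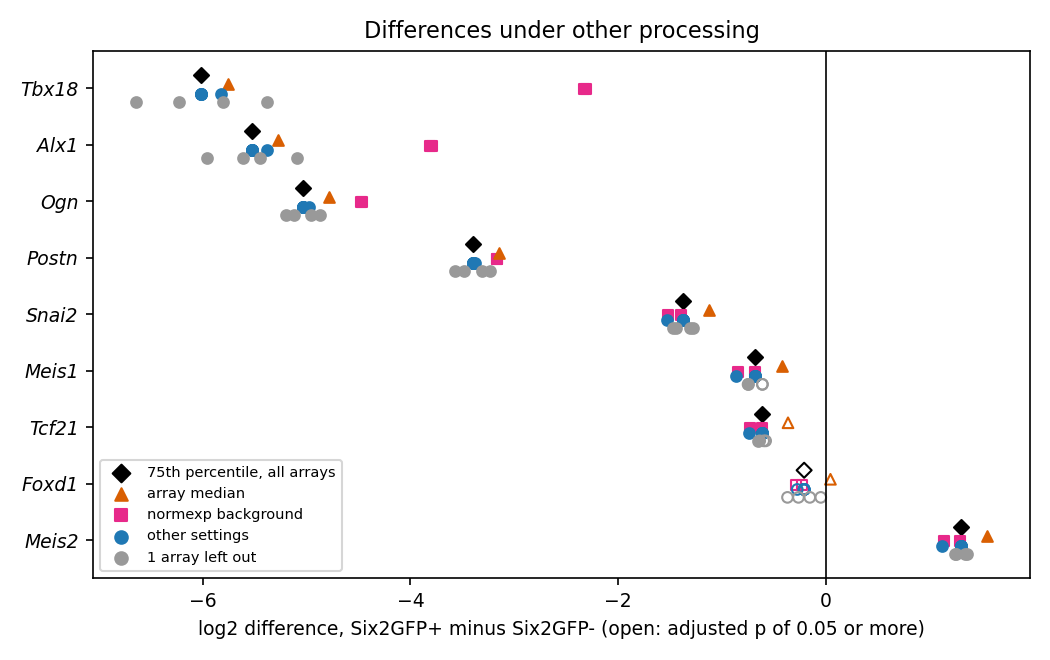
Log2 difference of each member, Six2GFP-positive minus Six2GFP-negative, under the main processing (black diamonds), with centring on the array median (orange triangles), with normexp background correction (pink squares), under the other settings (blue circles) and with 1 array left out (grey circles); open symbols have an adjusted p of 0.05 or more. Tbx18 and Alx1 shrink with normexp, Foxd1 crosses 0 with the array median, and Meis2 stays between 1.11 and 1.55.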

How the data were processed

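Per the labels' protocols, Trizol RNA of sorted cells was amplified and labelled with Cy3, 1 array per sample. Agilent Feature Extraction 10.7.3.1 read the scans, per the file headers (protocol GE1_107_Sep09, design 026655, mm9 coordinates). The deposited files hold linear intensity per spot, which Feature Extraction detrended within each array with no scaling from array to array; any later normalization is not stated in the labels or headers. The value table they deposited holds the same intensity: between 99.76% and 99.84% of probes lay within 0.01 log2 of the scanner value, and its array medians were 114 and 110 (positive), 158 and 143 (negative).

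Spots marked as outliers, 108 to 174 on an array, were not used, which dropped 34 probes. Log2 values of a probe's spots were averaged, and the 75th percentile over probes (1430 and 1410 on positive, 1604 and 1587 on negative arrays) was subtracted. Probes well above background on both arrays of a group were kept, 30012 in all, and tested two-sided by lmFit and eBayes of limma 3.58.1 (R 4.3.3), with p-values adjusted by Benjamini-Hochberg over all of them; the fit was tested on simulated data. Of the 39395 probes, 26034 were named through their accession in RefSeq's GRCm38.p6 gene table, among them all 9 members, and 29224 bore a current symbol. In lists, a gene is its brightest probe.

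The members and lists were chosen with earlier results of these data known. Single values of a few listed genes are not reported here. The text names every member, up to 2 of the most changed genes per list and direction, Six2, Cited1, the 3 genes nearest in pattern to Foxd1 and to Meis2, and others it identifies as named later. Alternatives were normexp (offset 50) with either scaling, the array median, quantile normalization, the value table, no filter, a filter on all 4 arrays, 1 probe per gene, a trended and robust variance, each array left out in turn, and a block for the replicate number. A slide or scan batch could not be fitted.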

Additional observations from a re-analysis of the deposited data

How the results depend on the processing

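Of the members, 5 to 7 were lower under the 14 alternatives, and Meis2 was higher in all of them; Tbx18 was not tested with the filter on all 4 arrays. Over all probes, 6343 were higher and 5463 lower; the array median gave 13562 higher and 4654 lower, no filter on dim probes gave 3391 higher, and leaving out 1 array gave 1576 to 2548 higher (2000 without positive array 1, 1767 without positive array 2, 2548 without negative array 1 and 1576 without negative array 2). Foxd1 turned to 0.042 with the array median, which shifted every difference by 0.25. The cause of the other changes was not tested. Of the 24 other stromal genes, 22 or 23 were lower under each setting, and the filter on all 4 arrays left 23 to test, of which 22 were lower. The calls of Pbx2, Pbx3, Pknox2 and Foxd4, the last named after its value was seen, were lost with at least 1 array left out. Where 1 array was left out, the lone array of its group was assumed to vary like the others.

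With the replicate number as a block, 5633 probes were higher and 5470 lower, and the members kept their 7 lower and 1 higher calls. Deviations of same-numbered arrays correlated at 0.22 over probes, but no label says that a number marks a shared litter or day. Dim signal limits Tbx18 and Alx1.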

Other observations

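Probes within 50 kb of a member's probe were measured for 5 members, and those named here were named after their values were seen. Near Foxd1, the probes that could be tested were higher, all close to the threshold (limma adjusted p = 0.0320 to 0.0398). Near Ogn, Omd is described above and another transcript did not pass (limma adjusted p = 0.201). Neighbours of Tcf21, Tbx18 and Meis1 follow. At 5514 bases from the Tcf21 probe and on the opposite strand, the transcript ENSMUST00000100029 had levels of -1.49 and -1.51 in Six2GFP-positive cells, against -2.06 and -2.19 in Six2GFP-negative cells. It was higher by 0.62 ± 0.09 (SE; limma adjusted p = 0.0140), while Tcf21 differed by -0.62. The call was lost without positive array 1 (adjusted p = 0.0733), positive array 2 (0.0786) or negative array 2 (0.0674).

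Near Tbx18, D030062O11Rik lies 27177 bases away on the opposite strand. On neither positive array was it well above background, and it was lower by a nominal bound of at least 1.37-fold (limma adjusted p = 0.00448). It passed the filter on dim probes only through the negative arrays, which set its direction, and the call was lost with normexp correction and the 75th percentile (-0.18, adjusted p = 0.0927). Near Meis1, 8430419K02Rik, 34804 bases away on the same strand, had levels of -4.14 and -4.85 in positive cells, against -2.13 and -2.60 in negative cells. Its difference of -2.13 ± 0.31 (SE; limma adjusted p = 0.0128) was not past the threshold without negative array 1 (0.0620) or negative array 2 (0.0533).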
